A study of Bos taurus with 71 samples.

Results

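Genes of NF-kB signalling, of the inhibitor of apoptosis family and of the caspase family were followed through the gut of the young calf. The members were selected by symbol from a table of immune-related genes published with the study. Its authors had limited that table to genes expressed in the jejunum or the ileum, and it does not cover the rumen. Symbols were taken that begin with the usual prefixes of Toll-like and NOD-like receptors and of their adaptors and kinases. Those of NF-kB and I kappa B proteins, inhibitors of apoptosis and caspases were also taken. The shortened copy of that table at hand holds 1280 genes, and 18 of these, of the 21510 Ensembl genes in each deposited file, are described as members. A further 2 receptor genes in this copy match the prefixes but are left out by the rule. Other Toll-like and NOD-like receptors that the study detected are not among the genes of the shortened copy. For both reasons no such receptor is among the 18 members. The set holds the signalling kinases and the cell death machinery downstream of such receptors rather than the receptors themselves. The members are the adaptor TICAM1, the receptor-associated kinases IRAK1, IRAK2 and IRAK4, the I kappa B kinase genes CHUK, IKBKB, IKBKG and IKBKE, IKBKAP, the nuclear I kappa B gene NFKBID, the inhibitor of apoptosis genes BIRC2, BIRC5 and BIRC6, TNFAIP8, and the caspases CASP2, CASP6, CASP8 and CASP9.

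Tissue RNA of male Holstein calves was sequenced at birth (D0, 3 calves), before any colostrum, and at 7, 21 and 42 days of age (D7, D21 and D42, 5 calves each), after colostrum and on milk, with calf starter also on offer to the older calves. The libraries used here are 18 of the mid-jejunum (JE), 18 of the ileum (IL) and 18 of the rumen (RU), and the labels give no treatment. Calves differed between ages, while a shared age and number in the labels was read as the same calf. The samples are pieces of whole tissue, so for every result below fewer cells of a type and less RNA per cell cannot be told apart.

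Toll-like and interleukin-1 receptors pass their signal through adaptors and IRAK kinases to the I kappa B kinase complex, which marks inhibitory I kappa B proteins for destruction and so frees NF-kB to enter the nucleus. Caspases are proteases made as inactive precursors. Initiator caspases are switched on in large complexes and cut the executioner caspases, and several inhibitor of apoptosis proteins act as ubiquitin ligases that also feed into NF-kB. In the ileum of young ruminants a long continuous Peyer's patch, rich in dividing and dying B cells, lies beneath the epithelium.

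The values are CPM, read counts scaled to the mapped reads of a library, that were deposited as whole numbers. All 18 members passed the filter on low values (at least 2 CPM in at least 50% of the libraries of a region) in each of the 3 regions. The values summed to between 970214 and 984626 per library, and between 13380 and 15356 genes had at least 1 CPM. Of the 36 JE and IL libraries, 33 had the values of the table of immune-related genes after rounding, for at least 96.7% of its genes, and 3 did not (at most 5.78%), namely IL of D0 calves 1 and 2 and IL of D42 calf 1. IL D0 calf 1 and IL D42 calf 1 also stood apart from the other IL libraries in several marker sums. The summed CPM of 8 B lineage markers was 168 and 551 in them and 4934 to 7364 in the other 16 IL libraries, and that of 14 cell cycle genes was 276 and 367 against 1453 to 2590. Their stroma and muscle sums (6 genes) were higher, at 15976 and 15185 CPM against 3575 to 7573. Their small intestinal epithelial sums (10 genes) were 3026 and 4775 CPM, within the range of the other IL libraries and below every JE library. Among rumen libraries, calf 2 of D0 stood apart, with 6096 CPM in 6 stroma and muscle genes against 48769 and 49378 in the other D0 calves. Small intestinal epithelial markers (10 genes) summed to 5504 to 50813 CPM in JE, 617 to 10180 in IL and 73 to 157 in RU, where 5 of the 10 were listed at 0 in every library of each age, and stratified epithelial markers (6 genes) to 3571 to 9880 in RU and at most 1150 elsewhere.

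The first question was how the members differ between the jejunum and the ileum. CASP9, NFKBID, BIRC5 and TNFAIP8 were higher in the ileum and TICAM1 was higher in the jejunum, by 2.57-fold to 4.46-fold at D7 and D21, while the IRAK kinases and the 3 genes of the I kappa B kinase complex differed less than 2-fold at every age. A gene was called differentially expressed (DE) at an adjusted p below 0.05 and a fold change above 2, by limma on log2(CPM + 1) with Benjamini-Hochberg adjustment over all genes tested, and fold changes are on that scale. At D7, 1 of 18 members was JE-enriched (9.62% of all genes tested) and 4 were IL-enriched (17.5%). At D21 the counts were 1 (12.1%) and 4 (14.7%), and the members were the same 5 genes. At D42, 1 member was JE-enriched (7.64%) and 4 were IL-enriched (13.3%). At D0, 1 member was JE-enriched (6.04%) and 2 were IL-enriched (2.83%). From D7 on these counts lay near the shares of all genes, so the counts by themselves do not set the members apart, and no test of the set was made. The median log2 fold change (JE minus IL) of the 18 members was -0.62, -0.54 and -0.55 at D7, D21 and D42, and that of all genes was -0.25, -0.12 and -0.15. The members' fold changes are plotted for all 12 comparisons between regions.

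**Figure D1:**
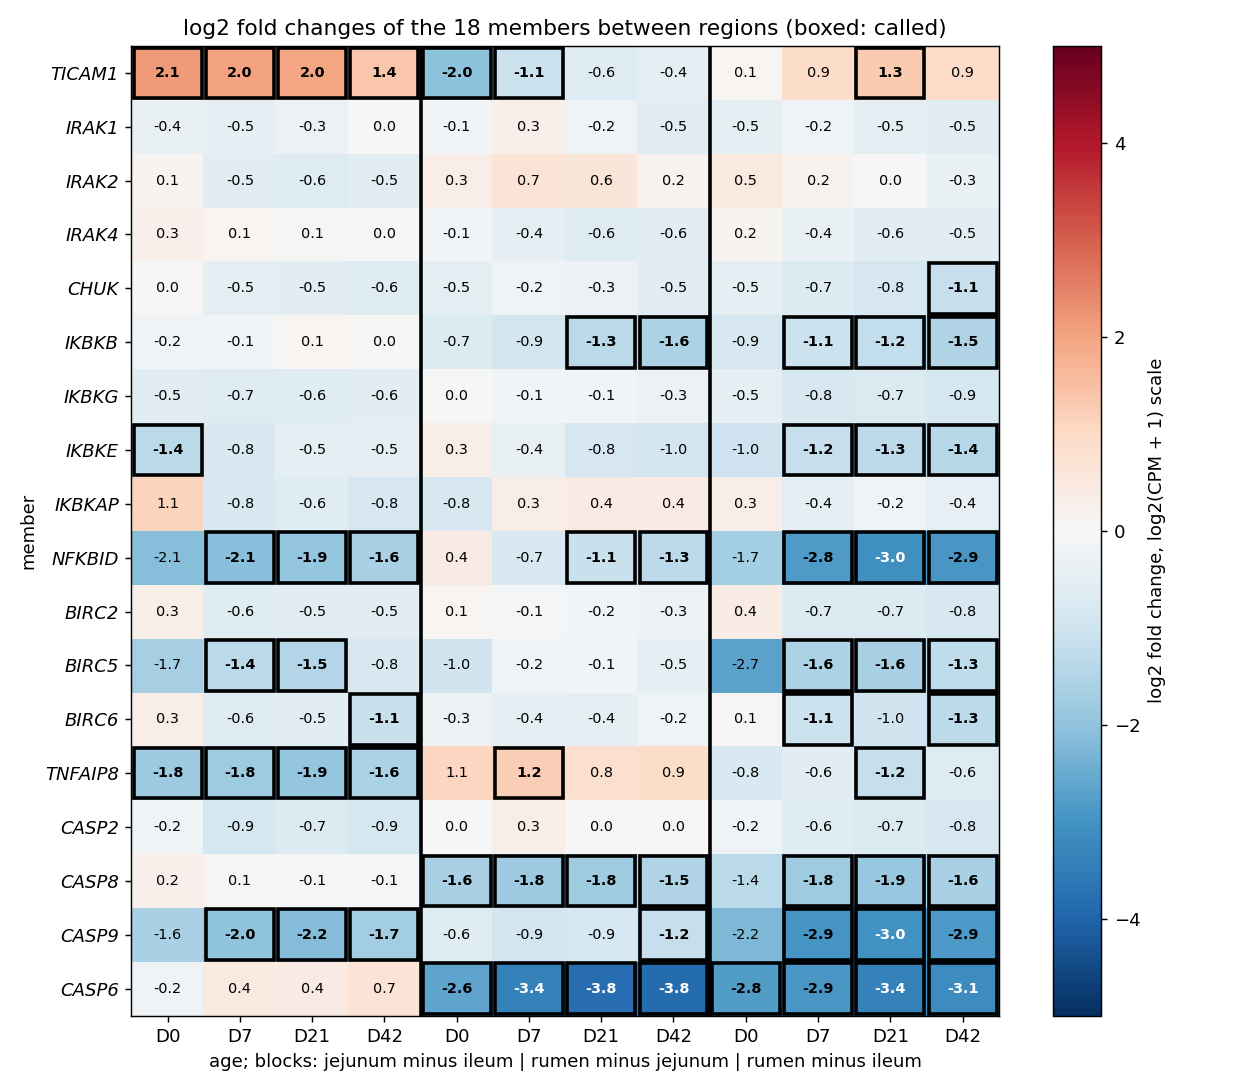
Log2 fold change on the log2(CPM + 1) scale of each member (rows) at each age (columns) for JE minus IL, RU minus JE and RU minus IL, with boxes around called members. CASP9 lies at -2.16 in JE minus IL at D21, and CASP6 at -3.79 in RU minus JE at D21.

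TICAM1, also known as TRIF, is the adaptor that links certain Toll-like receptors to NF-kB and to interferon genes. In JE it measured 69, 44, 63, 65 and 52 CPM at D7 and 43, 38, 38, 49 and 52 at D21, and in IL it measured 17, 13, 13, 11 and 15 at D7 and 10, 7, 11, 14 and 11 at D21. Every JE library was above every IL library of its age. The difference was 4.01-fold at D7 (log2 fold change 2.0, SE 0.15, adjusted p 3.64e-07, limma) and 3.93-fold at D21 (1.97, SE 0.17, adjusted p 1.2e-06). It was 2.61-fold at D42 (1.38, SE 0.24, adjusted p 0.00137), where JE measured 38, 33, 20, 38 and 44 CPM and IL 17, 11, 9, 10 and 16.

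The kinases IRAK1, IRAK2 and IRAK4, which carry the signal from MyD88 onwards, differed little between JE and IL. IRAK4, the first kinase to be recruited, measured 40 to 57 CPM in JE and 39 to 55 in IL over all ages, and its log2 fold change lay between 0.01 and 0.27 with no adjusted p below 0.267 (limma). IRAK1 measured 53 to 98 CPM in JE and 81 to 113 in IL. Its difference passed the p threshold only at D7 (log2 fold change -0.47, SE 0.12, adjusted p 0.00518). IRAK2 measured 7 to 15 CPM in JE and 10 to 18 in IL, values at which the step of 1 CPM is coarse, and was lower in JE by 1.43-fold, 1.54-fold and 1.45-fold at D7, D21 and D42 (adjusted p 0.0244, 0.0138 and 0.0296), with overlap between the regions at each age.

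Of the I kappa B kinase genes, the catalytic subunit gene IKBKB measured 59 to 95 CPM in JE and 61 to 100 in IL and did not pass the p threshold at any age. The other catalytic subunit gene, CHUK, and the regulatory subunit gene IKBKG (NEMO) were lower in JE from D7 on, by less than 2-fold. CHUK measured 43, 52, 54, 48 and 47 CPM in JE and 61, 62, 75, 76 and 71 in IL at D7, a 1.40-fold difference (log2 fold change -0.49, SE 0.11, adjusted p 0.00153, limma). IKBKG measured 26, 27, 27, 27 and 27 CPM in JE and 46, 43, 39, 40 and 47 in IL at D7, a 1.58-fold difference (-0.66, SE 0.10, adjusted p 7.56e-05). Neither gene overlapped between the regions at D7. IKBKE, a related kinase that acts on interferon regulatory factors, measured 12, 14 and 7 CPM in JE and 29, 28 and 29 in IL at D0 and was called there (log2 fold change -1.35, SE 0.28, adjusted p 0.0421), and its difference at the later ages was 1.38-fold to 1.70-fold. IKBKAP carries the kinase complex in its name, but its product is known as the scaffold of Elongator, a complex that modifies transfer RNA. It was higher in JE at D0 without being called (log2 fold change 1.12, SE 0.45, adjusted p 0.151) and lower in JE at D7 (-0.76, SE 0.16, adjusted p 0.00119), D21 and D42.

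NFKBID encodes an I kappa B protein that works in the nucleus. At D7 it measured 9, 11, 8, 8 and 10 CPM in JE and 39, 48, 28, 41 and 60 in IL, and at D21 it measured 11, 14, 15, 8 and 10 in JE and 42, 61, 57, 36 and 40 in IL. The regions did not overlap. The difference was 4.24-fold at D7 (log2 fold change -2.08, SE 0.18, adjusted p 1.21e-06, limma) and 3.83-fold at D21 (-1.94, SE 0.19, adjusted p 4.52e-06). At D42 IL calf 1 measured 12 CPM, within the JE range of 7 to 12, and the other IL calves 65, 35, 49 and 31. The D42 difference was 3.08-fold with that library (-1.62, SE 0.38, adjusted p 0.0058) and -1.98 on the log2 scale without it (adjusted p 6.04e-05).

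CASP9 encodes the initiator caspase of the mitochondrial pathway, which is switched on in the apoptosome. In JE it stayed between 21 and 33 CPM in all 18 libraries. In IL it measured 81, 98, 94, 126 and 185 CPM at D7 and 134, 137, 161, 113 and 103 at D21. All 10 of these IL values lay above every JE value. The difference was 4.01-fold at D7 (log2 fold change -2.0, SE 0.20, adjusted p 3.7e-06, limma) and 4.46-fold at D21 (-2.16, SE 0.12, adjusted p 7.22e-08). At D42 IL calf 1 measured 32 CPM and the others 168, 89, 146 and 95. The D42 difference was 3.30-fold (-1.72, SE 0.38, adjusted p 0.00454), and -2.10 on the log2 scale without calf 1's ileum (adjusted p 2.35e-05). At D0 the 3 IL libraries measured 29, 155 and 114 CPM and the difference was not called (-1.62, SE 0.63, adjusted p 0.138).

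BIRC5 (survivin) is grouped with the inhibitors of apoptosis by its domain, and is known as a subunit of the chromosomal passenger complex that works with AURKB in dividing cells. At D7 it measured 46, 50, 58, 27 and 45 CPM in JE and 97, 113, 118, 119 and 127 in IL, a 2.57-fold difference (log2 fold change -1.36, SE 0.17, adjusted p 2.44e-05, limma). At D21 the difference was 2.77-fold (-1.47, SE 0.12, adjusted p 9.54e-07), and the regions did not overlap at either age. At D42 IL calf 1 measured 27 CPM, below all 5 JE libraries (44 to 58), and the other IL calves 143, 122, 99 and 99. BIRC5 was not called at D42 with that library (-0.79, SE 0.38, adjusted p 0.113) and was called without it (-1.20, adjusted p 6.53e-05). BIRC2, a ubiquitin ligase at tumour necrosis factor receptors, measured 5 to 9 CPM in JE and 4 to 13 in IL. BIRC6, a very large ubiquitin-conjugating protein, was lower in JE at D42, with 144, 122, 174, 128 and 161 CPM against 305, 290, 266, 380 and 353 (2.18-fold, log2 fold change -1.12, SE 0.14, adjusted p 0.00038). Its fold change was 1.56 at D7 and 1.45 at D21.

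TNFAIP8, a small protein induced by tumour necrosis factor, measured 21, 23, 18, 19 and 16 CPM in JE and 55, 65, 72, 81 and 77 in IL at D7 (3.47-fold, log2 fold change -1.80, SE 0.14, adjusted p 3.26e-07, limma). It was called at all 4 ages, at 3.84-fold at D21 and 2.96-fold at D42. The regions were apart at D7 and D21 and overlapped at D42, where IL calf 1 measured 26 CPM. At D0 IL calves measured 32, 88 and 72 CPM and JE calves 15, 16 and 17 (3.53-fold, adjusted p 0.0443).

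**Figure D2:**
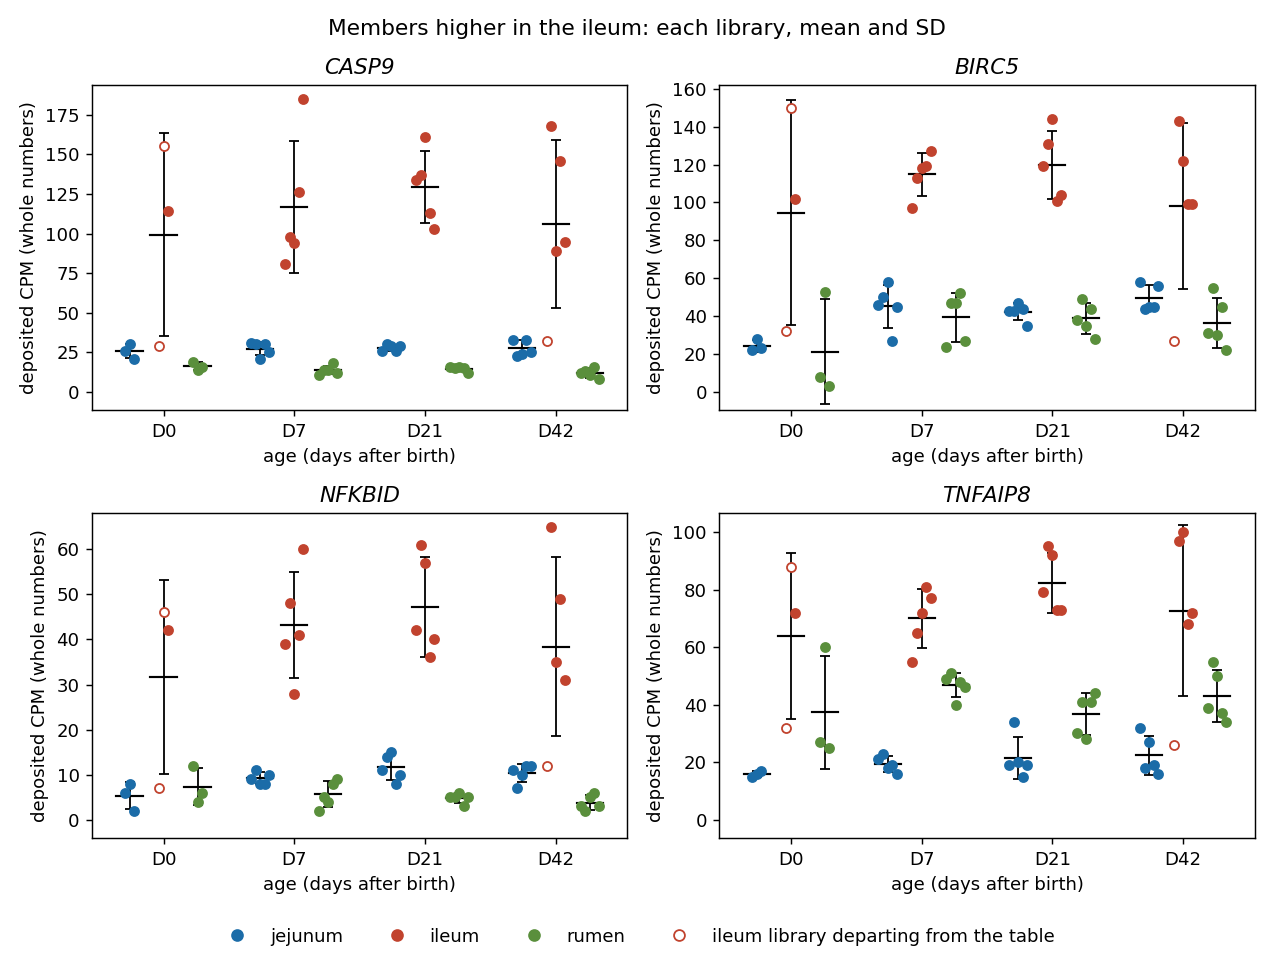
CPM of CASP9, BIRC5, NFKBID and TNFAIP8 (y axes) in each library of JE, IL and RU by age (x axes), with group means and SDs as black bars and open circles for the 3 IL libraries that do not have the values of the published table. CASP9 lies between 21 and 33 CPM in JE, and the open circles at 29 and 32 CPM are IL D0 calf 1 and IL D42 calf 1.

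CASP6, an executioner caspase, was higher in JE than in IL from D7 on, by less than 2-fold. At D42 it measured 211, 248, 166, 203 and 191 CPM in JE and 153, 101, 118, 124 and 135 in IL, with every JE library above every IL library (1.61-fold, log2 fold change 0.69, SE 0.14, adjusted p 0.00307, limma). Its difference was 1.36-fold at D7 (adjusted p 0.0122) and 1.33-fold at D21 (adjusted p 0.0102), where the regions overlapped. CASP8, the initiator at death receptors, did not pass the p threshold between JE and IL at any age, with log2 fold changes of -0.12 to 0.24. CASP2, an initiator linked to damage responses, was lower in JE from D7 on, by 1.59-fold to 1.86-fold.

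At D0 the calls rested on 3 calves a region. TICAM1 measured 51, 59 and 58 CPM in JE and 10, 8 and 21 in IL (4.39-fold, adjusted p 0.0295, limma). With the calf as a replicate block 0 of 18 members were called at D0, where limma called 2 genes in all (0.0143%), and without calf 2 or without calf 3 it called 0 of all genes, so these counts say nothing of the members. The log2 fold change of TICAM1 in those fits was 1.83 and 2.49, and 2.13 with all calves. Without calf 1, 0 members were JE-enriched and 3 IL-enriched, beside 6.47% and 12.6% of all genes. In that fit TICAM1 (log2 fold change 2.08, adjusted p 0.0712, limma) and IKBKE (-1.43, adjusted p 0.077) were not called. TICAM1 was thus called in no fit that left out 1 calf at D0. Without the IL libraries of calves 1 and 2, 1 IL library remains, which is assumed to vary like the JE group, so only fold changes are given. The log2 fold change was then 1.37 for TICAM1, -2.10 for TNFAIP8, -1.37 for IKBKE, -2.03 for BIRC5 and -2.12 for CASP9.

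Marker lists also differed between JE and IL. The 14 cell cycle genes were lower in JE in all 14 at D7 and D21 and in 12 of them at D42, and their summed CPM was 300 to 576 in JE and 1453 to 2590 in the other 16 IL libraries. The 8 B lineage genes were lower in JE in 8, 7 and 7 of 8, with sums of 36 to 5377 CPM in JE. The 10 small intestinal epithelial genes were higher in JE in 10, 10 and 7 of 10. No gene of these 3 lists was at 0 in all libraries of a JE or IL group. In the 2 IL libraries with low B lineage and cell cycle sums, CASP9 (29 and 32 CPM), BIRC5 (32 and 27), NFKBID (7 and 12) and TNFAIP8 (32 and 26) were each below all other IL libraries. IKBKE (29 and 32 CPM) was within the range of the other IL libraries (25 to 44), and BIRC6 measured 87 and 305 against 175 to 380. In JE, CASP9 measured 21 to 33 CPM over B lineage sums of 36 to 5377 CPM. JE D21 calf 2 had 5377 CPM of B lineage genes and 30 CPM of CASP9. JE D0 calves had 36 to 130 CPM of B lineage genes and 21 to 30 CPM of CASP9. A sum follows its most abundant genes. At D21 the median log2 fold change (JE minus IL) of the 8 B lineage genes was -3.54. The median sums were 2711 CPM in JE and 5962 in IL, so a high sum need not mean that most of the 8 genes are high. The part of these cell types in the differences was not tested.

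**Figure D3:**
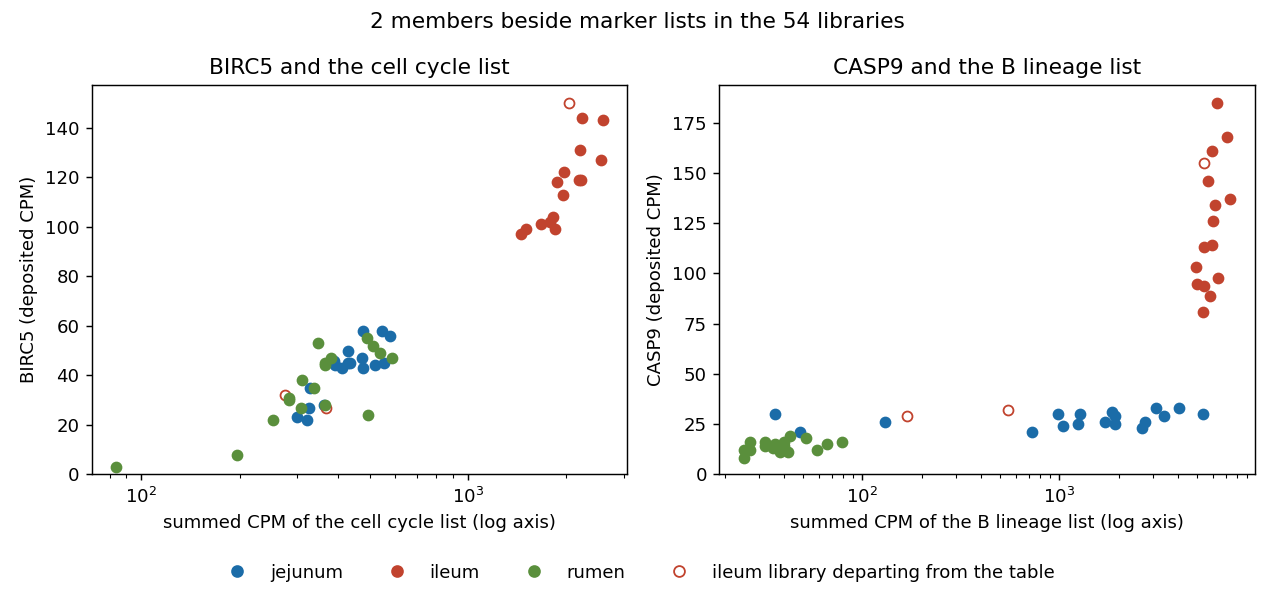
BIRC5 against the summed CPM of 14 cell cycle genes, and CASP9 against that of 8 B lineage genes, in all 54 libraries (log x axes, 1 point per library, open circles for the 3 IL libraries that do not have the values of the published table). In JE, CASP9 lies at 21 to 33 CPM and the B lineage sum at 36 to 5377. The sum follows its most abundant genes. In JE the median log2 fold change of the 8 genes was 0.83 from D0 to D7, 0.44 to D21 and 0.50 to D42.

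Among 20 other genes of NF-kB signalling and innate sensing, 1, 2 and 1 were JE-enriched at D7, D21 and D42 and 5, 4 and 3 were IL-enriched, with a median log2 fold change of -0.40, -0.53 and -0.18. LTB, a lymphotoxin subunit (log2 fold change -2.70 at D7, SE 0.27, adjusted p 2.89e-06, limma), VCAM1, an adhesion molecule and NF-kB target (-2.90, SE 0.15), and ICAM1 (-1.80, SE 0.18) were IL-enriched at D7, D21 and D42. CARD10, a scaffold of NF-kB signalling in non-lymphoid cells, was JE-enriched at D7 (1.11, SE 0.19, adjusted p 0.000268) and D21 (1.68). Of 14 other apoptosis genes 1 was called at each of these ages, namely BCL2L11 (BIM), which triggers the mitochondrial pathway and was IL-enriched (-1.87 at D7, SE 0.19, adjusted p 3.56e-06). At D0, IRF3 (-1.02, SE 0.18, adjusted p 0.0319) was the only gene of both lists called.

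The second question was how the members change with age. In JE between D0 and D7, IKBKAP fell, so that 0 of 18 members were upregulated (3.94% of genes tested) and 1 was downregulated (5.56%). IKBKAP measured 48, 48 and 61 CPM at D0 and 15, 21, 21, 25 and 25 at D7, with no overlap (2.40-fold lower, log2 fold change -1.26, SE 0.18, adjusted p 0.000676, limma), and it stayed between 12 and 28 CPM at D21 and D42. A further 3 members passed the p threshold with a smaller fold change. IKBKE (1.75-fold, adjusted p 0.026), BIRC5 (1.78-fold, adjusted p 0.0197) and CASP6 (1.40-fold, adjusted p 0.0453) were higher at D7. The count of members called was 2 without D0 calf 2, when NFKBID passed (1.15, adjusted p 0.0377), and without D7 calf 4, when BIRC5 did (log2 fold change 1.0, adjusted p 0.00132). Those fits called 8.90% and 10.5% of all genes. With all libraries the median log2 fold change was 0.07 for the members and -0.10 for all genes.

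**Figure D4:**
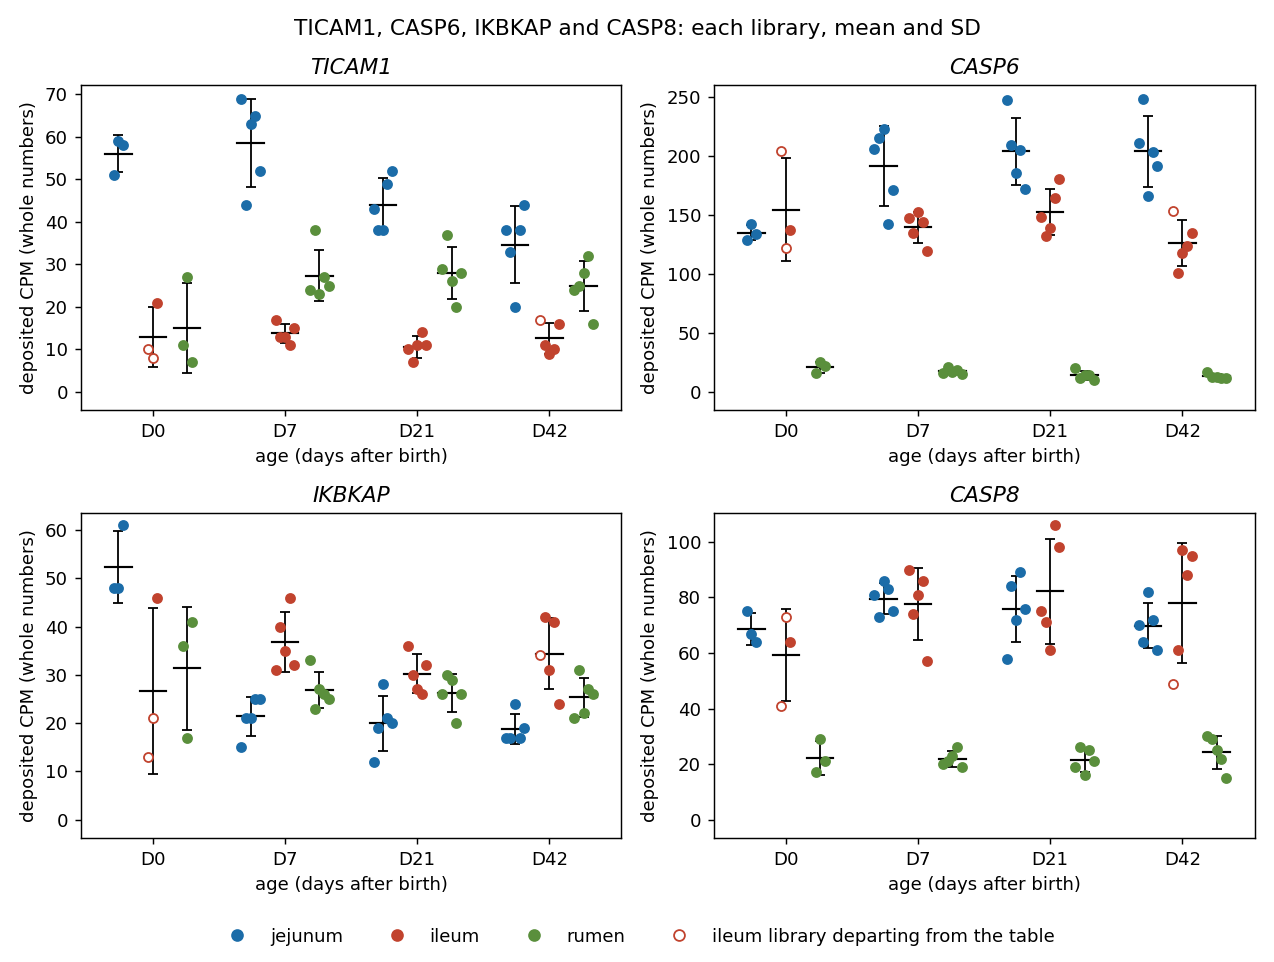
CPM of TICAM1, CASP6, IKBKAP and CASP8 (y axes) in each library of JE, IL and RU by age (x axes), with group means and SDs as black bars and open circles for the 3 IL libraries that do not have the values of the published table. IKBKAP in JE lies at 48 to 61 CPM at D0 and at 15 to 25 CPM at D7, and CASP6 in RU lies at 10 to 25 CPM.

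In the same week 8 of the 20 other genes of NF-kB signalling and sensing rose in JE and 0 fell. These were IL18, an inflammasome-processed cytokine (log2 fold change 2.51, SE 0.18, adjusted p 1.23e-05, limma), the RNA sensor genes DDX58 (RIG-I; 1.80, SE 0.23) and IFIH1 (MDA5; 1.45, SE 0.20), CD40, a co-stimulatory receptor (1.78, SE 0.25), IRF7 (1.5), LTB (1.46), BCL3, a nuclear I kappa B protein (1.41), and CARD9 (1.12). Of the 14 other apoptosis genes 2 fell, the survival gene BCL2L1 (-1.35, SE 0.12, adjusted p 5.61e-05) and BCL2L11 (-1.28, SE 0.25, adjusted p 0.00427). The B lineage sum was 36 to 130 CPM at D0 and 728 to 1846 at D7. Of the 8 B lineage genes only 1 was called higher, and their median log2 fold change was 0.83. The part of B lineage cells in these changes was not tested.

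No member was called between D21 and D7 or between D42 and D21 in JE, where limma called 0 genes (0%), with 768 and 790 genes and 1 and 0 members at an unadjusted p below 0.05. In IL 0 genes (0%) were called between adjacent ages by limma, with 2125, 1453 and 338 genes at an unadjusted p below 0.05, of which 2, 0 and 0 were members. The IL comparison of D7 with D0 included the doubted libraries, and without them a single D0 library would remain. In RU limma called 0 members between adjacent ages. It called 0 (0%), 8 (0.0620%) and 0 (0%) genes, with 957, 2115 and 692 genes and 2, 1 and 0 members at an unadjusted p below 0.05. BIRC5 in RU measured 8, 53 and 3 CPM at D0 and 24, 47, 47, 52 and 27 at D7, and TICAM1 measured 11, 27 and 7 at D0 and 24, 38, 23, 27 and 25 at D7. In both genes the high D0 value belonged to calf 2. Without that library both were called higher at D7 (BIRC5 log2 fold change 2.68, adjusted p 0.00291, and TICAM1 1.51, adjusted p 0.00584), in a fit that called 703 genes higher (5.45%) and 1262 lower (9.78%) where 0 were called with it. The cell cycle sum was 348 CPM in that library and 84 and 197 in the other D0 rumens.

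Whether the first-week change differed between regions was tested as an interaction. IKBKAP was the only member called for JE against IL (9.56% of genes were called), with a change 1.88 lower on the log2 scale in JE (SE 0.41, adjusted p 0.0154, limma). Its IL values were 13, 21 and 46 CPM at D0 and 31, 40, 35, 46 and 32 at D7. The low D0 values came from calves 1 and 2, whose libraries do not have the values of the table. Without these, which leaves 1 IL library at D0, the difference was -0.93. Without D0 calf 2 (-1.86, adjusted p 0.0558), D7 calf 2 (-1.85, adjusted p 0.0551) or D7 calf 3 (-1.89, adjusted p 0.0522) the difference was about as large as with all libraries and just missed the threshold. For RU against JE 0 members were called (3.37% of genes) and for RU against IL 0 (0.0211%), with 3 and 2 members at an unadjusted p below 0.05 by limma. Without D0 calf 2, BIRC5 and TICAM1 were called for RU against JE (1.75, adjusted p 0.038, and 1.42, adjusted p 0.0114), and TICAM1 and BIRC6 for RU against IL (1.6, adjusted p 0.0232, and -1.83, adjusted p 0.017), in fits that called 9.38% and 17.5% of all genes.

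The third comparison set the rumen, a stratified epithelium on muscle, beside both parts of the small intestine. CASP6 was lower in RU than in JE and IL at every age, by 6.27-fold to 14.2-fold, and had the widest difference of the 18 members against JE at all 4 ages and against IL at D0, D21 and D42. At D7 the widest difference from IL was that of CASP9 (7.71-fold). CASP8 was lower than JE at all 4 ages and than IL from D7 on. Against JE, 0, 1, 0 and 0 members were higher in RU at D0, D7, D21 and D42 (7.38%, 14.6%, 10.7% and 10.0% of genes) and 3, 3, 4 and 5 were lower (12.8%, 17.6%, 21.9% and 23.5%). Against IL, 0, 0, 1 and 0 were higher (2.60%, 14.3%, 13.8% and 10.6%) and 1, 8, 8 and 9 were lower (2.93%, 25.2%, 30.1% and 32.3%). The median log2 fold change against IL was -0.50, -0.74, -0.90 and -1.01 for the members and -0.08, -0.29, -0.43 and -0.53 for all genes. The counts of members lower in RU lay near the share of all genes against JE. Against IL they lay above it from D7 on, with no test of the set. The members came from genes expressed in jejunum or ileum, while all genes tested include those that passed in RU alone. The counts and the shares are therefore not evenly matched. After median-ratio scaling of the libraries 5 members were lower than IL at D7, D21 and D42, against 20.5%, 21.5% and 21.3% of all genes. These comparisons share their RU libraries.

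CASP6 measured 16, 21, 17, 19 and 15 CPM in RU at D7, 206, 215, 223, 142 and 171 in JE and 147, 135, 152, 144 and 119 in IL. Over all ages it measured 10 to 25 CPM in the 18 RU libraries, 129 to 248 in JE and 101 to 204 in IL, so that all RU libraries were below all others. It was 10.3-fold lower than JE at D7 (log2 fold change -3.36, SE 0.15, adjusted p 3.42e-10, limma) and 14.2-fold lower at D42 (-3.83, SE 0.13, adjusted p 1.36e-10), and 7.57-fold lower than IL at D7 (-2.92, SE 0.12, adjusted p 4.83e-10). CASP8 measured 15 to 30 CPM in RU, 58 to 89 in JE and 41 to 106 in IL, and was 3.55-fold lower than JE at D7 (-1.83, SE 0.12, adjusted p 2.53e-08). CASP9 measured 8 to 19 CPM in RU, and was 7.71-fold lower than IL at D7 (-2.95, SE 0.21, adjusted p 9.1e-08), whereas against JE it was called only at D42 (2.22-fold, adjusted p 0.000161). CASP2 was not called in any comparison, at 26 to 49 CPM in RU.

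Of the kinase genes, IKBKB was lower in RU than in IL from D7 on (2.08-fold, 2.37-fold and 2.87-fold) and than in JE at D21 (2.53-fold, adjusted p 1.45e-06, limma) and D42 (2.98-fold, adjusted p 3.05e-06). At D42 it measured 18, 32, 31, 34 and 29 CPM in RU, 87, 80, 93, 93 and 77 in JE and 85, 73, 81, 87 and 89 in IL. IKBKE was lower than IL at D7, D21 and D42, by 2.22-fold to 2.70-fold, and CHUK at D42 (2.21-fold, adjusted p 1.45e-05). After median-ratio scaling of the libraries the log2 fold changes against IL were -0.96 to -0.90 for IKBKE, -0.66 for CHUK and -0.80 and -0.84 for IKBKB at D7 and D21, all below the fold threshold. IKBKG was not called against either region, and nor were IRAK1, IRAK2, IRAK4, IKBKAP and BIRC2. NFKBID measured 2 to 12 CPM in RU and was lower than IL by 7.1-fold, 8.27-fold and 7.55-fold at D7, D21 and D42, and lower than JE at D21 (2.16-fold, adjusted p 0.00073) and D42 (2.45-fold, adjusted p 0.000672), of which the D21 difference was -0.93 on the log2 scale after that scaling and not called.

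TICAM1 and TNFAIP8 took a middle place. TICAM1 was lower in RU than in JE at D0 (4.09-fold, adjusted p 0.0304, limma; 0.0572 with the replicate block) and D7 (2.11-fold, adjusted p 0.000109; log2 fold change -0.97 and -0.99, below the fold threshold, without calf 1 or calf 3), and higher than in IL at D21 (2.5-fold, log2 fold change 1.32, SE 0.20, adjusted p 6.09e-05). TNFAIP8 was higher in RU than in JE at D7, with 49, 51, 40, 48 and 46 CPM against 21, 23, 18, 19 and 16 (2.35-fold, 1.23, SE 0.14, adjusted p 3.72e-06), and lower than in IL at D21 (2.23-fold, adjusted p 1.65e-05). BIRC5 was lower than in IL at D7 (2.99-fold), D21 (3.06-fold) and D42 (2.43-fold, adjusted p 0.0173), and was not called against JE. The D42 call was lost without calf 3 (-1.10, adjusted p 0.082), without calf 5 (-1.07, adjusted p 0.0863) and with median-ratio scaling (-0.80, adjusted p 0.132). BIRC6 was lower than in IL at D7 (2.12-fold) and D42 (2.51-fold).

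At D0 the RU comparisons were the least steady. Against IL only CASP6 was called (7.00-fold, adjusted p 0.00723, limma), and without any 1 of the 3 calves it was not called although its log2 fold change was -3.09 to -2.41 (-2.81 with all). Without IL calves 1 and 2, which leaves 1 IL library, the log2 fold change of CASP6 was -2.67. Against JE the 3 called members were TICAM1, CASP6 and CASP8. The count was 3 without calf 2, whose rumen stood apart (13.4% of all genes were lower in RU in that fit). It was 1 without calf 1 (3.77%) or calf 3 (5.82%).

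Scaling the libraries by their median ratio moved the median of all genes by more than 0.1 in several comparisons, up to 0.46 for RU minus IL at D42, and made the fold changes of members smaller where RU or JE was lower. The split of the members called against IL was then 1 higher and 5 lower in RU at D7, D21 and D42, and against JE at D42 it was 1 and 4. For all genes the split in JE against IL became 1929 JE-enriched and 1705 IL-enriched at D7 (1341 and 2434 as deposited), 2089 and 1689 at D21 (1690 and 2051), and 1465 and 1357 at D42 (1065 and 1852). In RU against IL it became 2593 and 2919 at D7 (2042 and 3588), 2789 and 3066 at D21 (1971 and 4283) and 2404 and 3033 at D42 (1506 and 4605), and in RU against JE at D42 1831 and 2679 (1420 and 3334). In JE between D0 and D7 it became 645 up and 591 down (531 and 748), with IKBKAP still the 1 member called, and in the interaction of JE and IL 460 and 617 (253 and 1080). In RU between D7 and D21 it became 10 and 4 (4 and 4). The 14 calls of members that were lost were BIRC6 in JE against IL at D42, TICAM1 at D0, NFKBID at D21 and CASP9 at D42 in RU against JE, and, in RU against IL, IKBKB at D7 and D21, IKBKE from D7 on, BIRC6 at D7 and D42, TNFAIP8 at D21, and CHUK and BIRC5 at D42, while CASP6 and CASP8 kept theirs in every comparison in which they were called.

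Of the 20 other genes of NF-kB signalling and sensing, 3, 7, 9 and 9 were lower in RU than in JE at D0, D7, D21 and D42 and 0 were higher, and 1, 8, 12 and 11 were lower than in IL and 0, 1, 1 and 0 higher. Of the 14 other apoptosis genes, 1, 3, 4 and 5 were lower than in JE and 1, 1, 2 and 2 higher, and 0, 3, 5 and 3 were lower than in IL and 0, 1, 2 and 2 higher. The B lineage sum in RU was 25 to 79 CPM and the myeloid sum (8 genes) 45 to 489 CPM, against 484 to 1815 CPM of myeloid genes in JE and IL, and up to 3 of the 8 B lineage genes were at 0 in every RU library of an age. T lineage genes (8 genes) summed to 13 to 194 CPM in RU, 154 to 481 in JE and 89 to 362 in IL. The part of these cell types in the lower values of RU was not tested, and the listed genes come from the same jejunum and ileum table as the members.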

How the data were processed

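RNA-Seq was run on 54 libraries used here (18 each of JE, IL and RU), grouped by the sample labels. The authors aligned reads to UMD3.1 with TopHat2 2.0.10, counted them on Ensembl genes with HTSeq and divided by the mapped reads of the library. The deposited score is that CPM rounded to whole numbers, so depth per library is unknown, the smallest step is 1 CPM and no counting interval is given. The kit does not mark strand, so overlapping or antisense genes may share reads. The methods describe JE and IL. RU is described by its labels only. The 17 files labelled distal jejunum hold the values of the IL files and were not used.

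Each comparison was fitted on log2(CPM + 1) by limma (version 3.58.1, R 4.3.3, eBayes with trend) over the 2 groups concerned, or 4 groups for interactions. Genes entered at 2 CPM or more in at least 50% of the 18 libraries of a region, or of either region. The rule selects 20 members, and 2 of them and 1 gene of a list are not reported here. The other 18 are named, every called member with CPM values or fold changes. The members, gene lists and alternatives were chosen with earlier results of these data known. The fit was tested on simulated data. Libraries with the same number were taken as one calf from the study's sample naming, and the mean correlation of their deviations from the group means was -0.13 to 0.17. Figures and tables were made in Python 3.11.15 with pandas 2.3.3, numpy 2.4.6 and matplotlib 3.10.9.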

Additional observations from a re-analysis of the deposited data

Results flagged for a closer look

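In the 162 groups of 5 libraries looked at (18 members in 9 groups), 13 values lay far from the other 4 of their group, where chance alone flags about 1 in 20 groups. No library was flagged in more than 2 members. In JE at D7, IRAK2 measured 14 CPM in calf 4 and IKBKG 26 in calf 1, the latter beside 4 libraries at 27, where a single step of the rounding decides. In JE at D21, TNFAIP8 measured 34 in calf 2, and IKBKB 65 and IKBKG 23 in calf 5. In JE at D42, IRAK2 measured 15 and IKBKAP 24 in calf 3, and IKBKE 34 in calf 1. In IL at D7, IRAK4 measured 42 in calf 1. In RU, TICAM1 measured 38 in D7 calf 2, IKBKE 19 in D21 calf 2, CASP9 12 in D21 calf 5 and CASP6 17 in D42 calf 1. The change of IKBKAP from D0 to D7 differed between JE and IL by -1.88 on the log2 scale (JE minus IL, interaction in limma, adjusted p 0.0154). Without the IL libraries of D0 calves 1 and 2, which leaves 1 IL library at D0, the difference was -0.93.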

How the results depend on the processing

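No called member changed direction under any alternative run, and no filter on low values or a pseudocount of 0.5 left all 63 calls of members in place. With the calf as a replicate block, 58 of 62 calls between regions and in the interaction were kept, and the 4 lost were the 3 of JE against IL at D0, whose count became 0 (2 of all genes were called), and TICAM1 in RU against JE at D0. With adjusted p alone, without the fold threshold, 15, 14 and 13 members were called in JE against IL at D7, D21 and D42, 10, 9 and 11 in RU against JE, 16, 16 and 15 in RU against IL, and 4 in JE from D0 to D7, where 62.7%, 62.1% and 45.7%, 56.0%, 57.2% and 61.4%, 70.4%, 72.1% and 66.3%, and 25.6% of all genes were called. With all groups in 1 fit the count was 7 in JE against IL at D0, 6 in RU against IL at D0 and 2 in RU from D0 to D7 (23.3%, 29.4% and 2.22% of all genes). Without the 3 IL libraries a single IL library remains at D0, so no counts are drawn from JE or RU against IL at D0 or from the interaction of JE and IL. With median-ratio scaling the count was 1 in the interaction of RU and JE (IKBKAP, 1.07, adjusted p 0.0488, limma; 3.16% of all genes). Leaving out 1 calf or library at a time gave 0 to 3 in JE against IL at D0 (0% to 19.0% of all genes). It gave 1 to 3 in RU against JE at D0 (5.31% to 28.0%) and 0 to 0 in RU against IL at D0 (0% to 1.62%). From D0 to D7 it gave 1 to 2 in JE (7.91% to 10.6%) and 0 to 2 in RU (0% to 15.2%). In the interactions it gave 0 to 3 for JE and IL (2.06% to 17.4%), 0 to 2 for RU and JE (1.71% to 9.38%) and 0 to 2 for RU and IL (0% to 17.5%). The highest shares in RU against JE at D0, in RU from D0 to D7 and in both RU interactions came without D0 calf 2. Fewer libraries enter all of these fits, and the cause of the changed counts was not tested. The depth of each library is unknown, since the paper gives only an average with its spread for JE and IL and none for RU. Members at a few CPM (BIRC2, IRAK2 and, in RU, NFKBID) are limited by the step of 1 CPM.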
